A study of Mus musculus with 18 samples.

Results

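Mouse fibroblasts on day 6 of a chemical reprogramming course (D6) were compared with the fibroblasts the course began from (D0), by RNA sequencing of 2 libraries each, 4 of the 18 libraries of the series. D6 cells, labelled reprogramming intermediates, had been in reprogramming medium since the day after seeding, with the medium renewed daily from day 4. D0 cells were mouse embryonic fibroblasts (MEF) of passages 1 to 3, grown in DMEM with 10% fetal bovine serum. Both carry the strain label 129XOG2 and derive from E13.5 embryos (OG2 mice carry a green fluorescent reporter of the pluripotency gene Pou5f1), and no other genotype or transgene is labelled. D6 and D0 differed in medium, time in culture and cell state together, and these cannot be told apart. The composition of the reprogramming medium is not given in the sources used here, nor whether the 2 libraries of a group stand for separate cultures. The p-values below therefore rest on the variation between libraries of a group, pooled over all 9 groups of the series, which may be technical. Levels are in FPKM, which divides a gene's fragments by transcript length and by library size, for 55401 genes. Of these, 16439 reached 1 FPKM in 2 or more of the 18 libraries and were tested on log2(FPKM + 1), a scale that understates the change of low genes.

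Embryonic fibroblasts are mesenchymal cells that secrete collagen-rich matrix and hold tension through actin and myosin. They keep this identity through transcription factors such as Twist1 and Prrx1. In reprogramming, such cells lose mesenchymal and gain epithelial features before the pluripotency network of Pou5f1, Nanog and Sox2 is active. Chemical reprogramming uses small molecules in place of introduced genes, commonly acting on Wnt, TGF-beta, retinoid and chromatin pathways.

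D6 and D0 libraries differed in ways that touch every gene. The median gene was 0.50 higher in D6 on the log2 scale, and this shift depended on transcript length. Among protein-coding genes, the median difference was 1.05 in 2337 genes with over 8000 bases of exon, 0.41 in 4296 genes of 2000 to 4000 bases and 0.03 in 1714 genes of 1000 to 2000 bases. The D0 replicates differed from each other along the same axis, by -0.26 for the longest class (replicate 1 minus 2), and the D6 replicates by 0.09. The D6 and D0 comparison was therefore made on the values as deposited and again after a smooth trend over exon length was subtracted from each library, which left a median difference of -0.01 over all genes. Transcripts of mitochondrial DNA summed to 44.2% and 35.4% of all FPKM in D6 against 0.437% and 1.89% in D0. Cytosolic ribosomal protein transcripts summed to 8.01% and 10.3% in D6 against 32.6% and 27.1% in D0. Division by length raises the share of short genes in such sums. Weighted by length, the mitochondrial shares were 8.17% and 5.82% in D6 against 0.115% and 0.275% in D0. The ribosomal protein shares so weighted were 8.96% and 10.19% in D6 against 26.7% and 20.9% in D0. Values above 0 were listed for 21324 and 20800 genes in D6 against 13751 and 16517 in D0. Depth was read from the most frequent value above 0 of FPKM times exon length in kilobases, among single-exon genes of at least 300 bases. This value, taken to fall as depth rises, was 0.0263 and 0.0285 in D6 against 0.0303 and 0.0295 in D0. By this measure the depths lay close together. Of 3046 genes at 10 FPKM or more in all libraries outside D0, 4 were listed at 0 in D0 replicate 1 and 0 in replicate 2. The median absolute difference between replicates was 0.11 in D6 against 0.28 in D0, the largest of the 9 groups. The spread pooled over all groups may therefore understate that of D0.

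**Figure D1:**
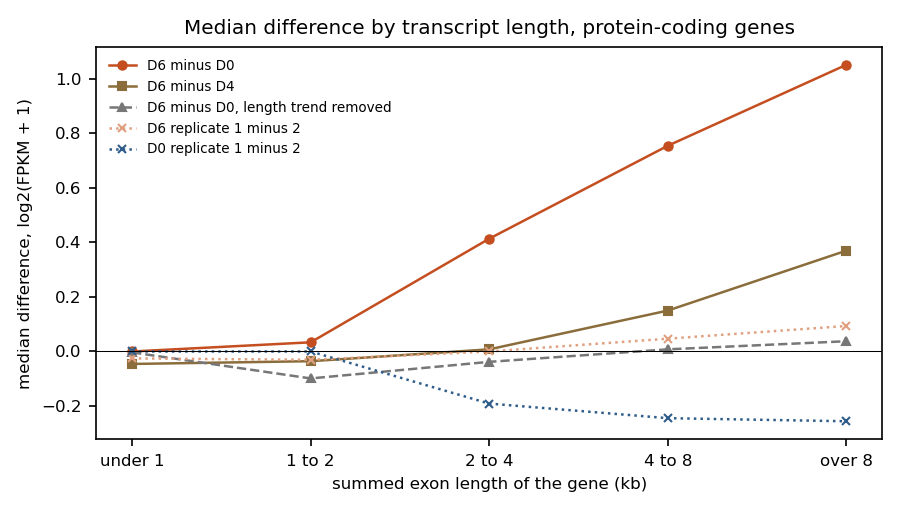
Median difference on the log2(FPKM + 1) scale (y axis) of protein-coding genes in 5 classes of summed exon length (x axis, kilobases), for D6 minus D0 as deposited and with the length trend removed, D6 minus D4, and replicate 1 minus 2 within D6 and within D0. The D6 minus D0 line climbs to 1.05 in the longest class and is near 0 once the trend is removed.

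As deposited, 5395 genes were higher in D6 (32.8% of those tested) and 1445 lower (8.79%), by the joint rule of a limma adjusted p below 0.05 and a difference of 2-fold or more. With the length trend removed, 2657 were higher (16.2% of 16423) and 2563 lower (15.6%). In the text below a gene rose or fell only where it was called in the same direction in both fits, which 2655 genes did upwards (16.2%) and 1435 downwards (8.73%), and shares of a gene list are to be read against these. The D6 and D0 libraries did not overlap in 13218 of the 16439 genes (80.4%), so separation alone marks no gene. Of the genes that rose, 328 were listed at 0 in both D0 libraries. No fold is given for those 328.

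Mesenchymal regulators went both ways, and several were far above the starting fibroblasts. Of 21 mesenchymal transcription factors tested, 7 rose and 2 fell (11 and 2 as deposited, 7 and 8 with the trend removed). All 6 repressors of epithelial genes in the epithelial to mesenchymal transition (EMT) were higher as deposited and 4 of them rose. Twist1, ENSMUSG00000035799, chromosome 12 from 33957671 to 33959829 in mm10, a basic helix-loop-helix factor of embryonic mesenchyme, measured 429 and 430.1 FPKM in D6 against 14.3 and 29.5 FPKM in D0 (log2 fold change 4.31 ± 0.28, limma adjusted p = 1.09e-07; 4.15 with the trend removed). Its D6 libraries were nearly equal and both lay far above D0. Snai1, which represses Cdh1, had 36.6 and 34.1 FPKM in D6 against 7.37 and 13.4 FPKM in D0, and its relative Snai2 had 20.1 and 16.9 in D6 against 4.77 and 5.71 in D0. Zeb1, a zinc finger repressor of the same junction genes, stood at 9.05 and 7.84 FPKM in D6 against 0.624 and 1.43 FPKM in D0. Zeb2 (8.52 and 8.26 in D6 against 0.975 and 1.49 in D0) and Twist2 (281 and 299 in D6 against 106 and 124 in D0) were higher as deposited and missed the threshold with the trend removed, at log2 differences of 0.94 and 0.83. In bulk RNA, fewer cells of a type and less RNA per cell cannot be told apart, here or in any result below.

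The rest of this list, mostly homeobox and forkhead factors, leaned lower. Of 15 tested, 3 rose and 2 fell (5 and 2 as deposited, 3 and 8 with the trend removed). Their median was -0.64 as deposited and -1.02 with the trend removed. Tcf4, an E protein that pairs with basic helix-loop-helix factors, rose to 46.3 and 39.3 FPKM in D6 against 4.56 and 3.39 in D0, and Msx2 to 5.3 and 5.55 against 0 and 1.08. Foxc2 fell to 2.82 and 3.01 FPKM in D6 against 6.99 and 8.61 in D0, and Meox2 to 0 and 0.203 against 1.06 and 1.68. Prrx1, the paired homeobox factor of limb and trunk fibroblasts, had 54.1 and 49.1 FPKM in D6 against 11.5 and 19.1 FPKM in D0 and was called only as deposited (1.73, and 0.72 with the trend removed). Prrx2 was lower only with the trend removed, at 44.8 and 47.1 in D6 against 71.8 and 88.2 in D0 (log2 -0.78 as deposited, and -1.02 with the trend removed).

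Of 23 fibroblast surface proteins, 8 rose and 2 fell (10 and 2 as deposited, 8 and 6 with the trend removed). Pdgfra, ENSMUSG00000029231, chromosome 5 from 75152292 to 75198215 in mm10, the PDGF receptor of mesenchymal progenitors, had 88.9 and 82.2 FPKM in D6 against 2.18 and 2.89 FPKM in D0 (log2 fold change 4.62 ± 0.23, limma adjusted p = 1.38e-08; 3.63 with the trend removed). Cdh11, the mesenchymal cadherin, had 147 and 122 FPKM in D6 against 3.31 and 7.45 FPKM in D0, and the glycoprotein Thy1 had 885 and 894 in D6 against 147 and 173 in D0. The aminopeptidase Anpep (CD13) reached 26.5 and 26 FPKM in D6 against 1.56 and 1.41 in D0. Mcam, a marker of perivascular cells, fell to 4.55 and 3.65 FPKM in D6 against 16.4 and 30.1 in D0, and S100a4, a calcium-binding protein of motile fibroblasts, to 352 and 399 against 1332 and 972. Pdgfrb, the other PDGF receptor, was lower only with the trend removed (21.5 and 22.8 in D6 against 28.9 and 31.5 in D0, log2 -1.17), and the neural cadherin Cdh2 was called in neither fit (14 and 12.203 in D6 against 6.15 and 8.88 in D0). Vimentin, the intermediate filament Vim, was lower without passing the fold threshold as deposited, at 1154 and 1189 FPKM in D6 against 1605 and 2086 FPKM in D0 (log2 -0.64), and was called lower with the trend removed (-1.31). The defining fibroblast markers Thy1, Pdgfra and Vim were thus present in all 4 libraries, in D6 as in D0.

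The contractile programme was lower in D6. Of 21 contractile genes 10 fell and 0 rose (10 and 2 as deposited, 16 and 0 with the trend removed; median -0.94 and -1.58). Acta2, ENSMUSG00000035783, chromosome 19 from 34241090 to 34255590 in mm10, smooth muscle alpha-actin and the marker of myofibroblasts, had 330.3 and 348 FPKM in D6 against 1981 and 2679 FPKM in D0 (log2 fold change -2.76 ± 0.59, limma adjusted p = 0.0011; -3.06 with the trend removed). Tagln (transgelin), an actin cross-linker of the same cells, had 243 and 258 in D6 against 1671 and 2192 in D0. Calponin Cnn1 had 9.58 and 10.21 in D6 against 85.7 and 109 in D0. Actg2, the enteric smooth muscle actin, had 32.9 and 34.3 FPKM in D6 against 228 and 312 FPKM in D0. Tropomyosin Tpm2 measured 193 and 199.9 in D6 against 2628 and 1629.6 in D0. The myosin light chain Myl6 measured 718 and 854 in D6 against 7034 and 4673 in D0. The non-muscle heavy chain Myh9 was called in neither fit, at 83.8 and 78.5 in D6 against 68.1 and 82.5 in D0 (log2 0.11, and -0.94 with the trend removed). In each of the genes that fell both D6 libraries lay below both D0 libraries.

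Of 8 targets of YAP and serum response factor, which respond to tension and to growth factors, 1 rose and 2 fell. Ccn2 (connective tissue growth factor) fell to 23.1 and 23.2 FPKM in D6 against 199 and 302 in D0, and the LIM protein Ajuba to 3.7 and 3.33 against 10.15 and 15.6. Ccn1, its close relative and an immediate early gene, rose to 640.3 and 603 FPKM in D6 against 99 and 159 in D0. Ankrd1 was lower only with the trend removed (30 and 28.6 in D6 against 44.8 and 57.1 in D0, log2 -1.22). Axl (56 and 52.2 in D6 against 30.8 and 44.1 in D0) and Srf itself (24.5 and 26.9 in D6 against 33.5 and 36.5 in D0) were called in neither fit. Markers of striated muscle moved with the contractile genes: the 23 listed summed to 39.3 and 42.4 FPKM in D6 against 827 and 633 FPKM in D0, and their part in the contractile result was not tested. The contractile genes named above are not among those markers.

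Matrix genes went both ways. Of 8 fibrillar collagen genes, 0 rose and only Col2a1, the collagen of cartilage, fell, to 0.394 and 0.218 FPKM in D6 against 8.17 and 9.91 in D0. Col1a1, the main chain of type I collagen, had 514 and 523 FPKM in D6 against 303 and 502 FPKM in D0 (log2 0.41, and -0.40 with the trend removed, called in neither fit). Col3a1 was higher only as deposited, at 175 and 171 in D6 against 62.8 and 109.8 in D0. The microfibrillar type VI chains rose together. Col6a1 had 475 and 473 FPKM in D6 against 38.6 and 56.1 FPKM in D0. Col6a2 had 327 and 331 in D6 against 46.9 and 70 in D0. Col6a3 had 127 and 117 in D6 against 11.1 and 14.8 in D0. Col18a1, the basement membrane collagen that carries endostatin, had 407 and 413 FPKM in D6 against 7.18 and 11.4 FPKM in D0, the largest rise among the 20 collagens outside type IV, of which 4 rose and 3 fell. Col8a2 fell to 0.372 and 0.26 FPKM in D6 against 4.91 and 5.54 in D0.

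Of 27 elastic fibre and other matrix glycoproteins 5 rose and 5 fell (9 and 5 as deposited, 5 and 8 with the trend removed). Among those that fell, elastin (Eln) had 7 and 7.37 FPKM in D6 against 99.5 and 153 FPKM in D0. Its cross-linking oxidase Lox had 4.1 and 3.87 in D6 against 32.7 and 56 in D0. The microfibril protein Mfap4 had 2.72 and 2.24 in D6 against 19.1 and 32 in D0. Ltbp2 and Loxl1, which also serve elastic fibre assembly, fell to 3.54 and 3.08 and to 32 and 32.4 FPKM in D6, against 11.8 and 13.8 and 68.4 and 89.8 FPKM in D0. Fibrillin Fbn1 was higher only as deposited (19.9 and 20.3 in D6 against 7.64 and 11.3 in D0), and the fibrillin-binding Mfap5 was called in neither fit (31 and 33 in D6 against 18.7 and 21.4 in D0). Among those that rose, Thbs2, an antiangiogenic thrombospondin, had 189 and 176 in D6 against 17.3 and 25.7 in D0, and fibulin Fbln1 had 184 and 192 in D6 against 19.4 and 30.7 in D0. Osteopontin Spp1 had 177 and 168 in D6 against 26.1 and 51.5 in D0. The large proteoglycan versican, Vcan, had 29.9 and 25.3 in D6 against 4.62 and 6.54 in D0, and the hyaluronan synthase Has1 had 9.06 and 8.64 in D6 against 0 and 0.084 in D0. Fibronectin Fn1 (112 and 89.7 in D6 against 45.6 and 71.2 in D0), Postn (80.1 and 75.5 in D6 against 38.7 and 81.7 in D0) and Sparc (959 and 979 in D6 against 485 and 650.4 in D0) were called in neither fit.

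Of 9 small leucine-rich proteoglycans, which bind and space collagen fibrils, 3 rose and 3 fell. Decorin (Dcn) had 259 and 228 FPKM in D6 against 0 and 5.08 FPKM in D0 and lumican (Lum) 183 and 166 FPKM in D6 against 1.05 and 3.25 FPKM in D0. Biglycan (Bgn) fell to 117 and 108 FPKM in D6 against 304 and 311 in D0, and Aspn to 0.0107 and 0.0319 against 4.3 and 7.16. Mgp, the matrix Gla protein that inhibits calcification and is in no list here, fell to 4.91 and 5.15 FPKM in D6 against 215 and 281 in D0. Of 16 basement membrane genes 3 rose and 0 fell. Nidogen Nid1, which links laminin to collagen, had 75 and 60.6 in D6 against 3.3 and 6.96 in D0. The laminin chain Lama1 had 6.56 and 6.28 in D6 against 0.258 and 0.0966 in D0 and the collagen chain Col4a5 6.77 and 5.07 in D6 against 0.474 and 0.569 in D0.

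Many matrix-degrading enzymes were higher. Of 16 proteases tested, 8 rose and 1 fell, with a median of 2.02 as deposited and 1.30 with the trend removed. Mmp2 (gelatinase A) had 589 and 592 FPKM in D6 against 14.4 and 24.3 FPKM in D0 and the plasminogen activator Plat 86.5 and 86.9 in D6 against 3.32 and 7.69 in D0. Mmp3 (stromelysin 1) had 191 and 201 FPKM in D6 against 3.77 and 4.57 FPKM in D0. Its close relative Mmp10 (stromelysin 2) had 52.4 and 52.4 in D6 against 0.936 and 0.443 in D0. Mmp13 (collagenase 3) had 34 and 32.3 in D6 against 0 and 0 in D0. These last lie within one gene cluster on chromosome 9, Mmp13 starting at 7272514 and Mmp3 at 7445822 in mm10. Membrane-bound Mmp14, the activator of Mmp2, was called in neither fit (355 and 340.3 in D6 against 322 and 264 in D0). Mmp23 was the protease that fell (4.34 and 6.07 in D6 against 49.5 and 38.2 in D0). Of 6 inhibitors 3 rose. Timp1 fell to 113 and 122 FPKM in D6 against 722 and 582 in D0. Reck, a membrane-anchored inhibitor, rose to 13 and 12.201 in D6 against 0.132 and 0.412 in D0. Timp2 was called in neither fit (164 and 159.8 in D6 against 154 and 156 in D0).

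The promoters of the 3 clustered proteases are shown because AP-1, the dimer of Fos and Jun proteins, is a known regulator of such genes with a known recognition sequence, TGANTCA, and because Fos and Junb are described next. They were picked after their values were seen. The 250 bases before each RefSeq start (GRCm38.p6, which is mm10; plus strand) are printed 5′ to 3′, with matches to TGANTCA on either strand in capitals. A match is a description of the letters.
Mmp3, chr9:7445572-7445821: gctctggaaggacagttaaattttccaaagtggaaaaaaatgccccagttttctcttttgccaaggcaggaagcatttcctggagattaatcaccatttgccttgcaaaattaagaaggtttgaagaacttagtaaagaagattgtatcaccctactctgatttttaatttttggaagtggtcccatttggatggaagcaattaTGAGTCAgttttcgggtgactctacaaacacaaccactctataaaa
Mmp10, chr9:7502092-7502341: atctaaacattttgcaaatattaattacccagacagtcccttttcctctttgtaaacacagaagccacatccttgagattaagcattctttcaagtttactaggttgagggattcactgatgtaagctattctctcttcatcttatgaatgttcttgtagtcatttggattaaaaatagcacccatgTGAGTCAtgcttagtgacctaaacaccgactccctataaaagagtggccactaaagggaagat
Mmp13, chr9:7272264-7272513: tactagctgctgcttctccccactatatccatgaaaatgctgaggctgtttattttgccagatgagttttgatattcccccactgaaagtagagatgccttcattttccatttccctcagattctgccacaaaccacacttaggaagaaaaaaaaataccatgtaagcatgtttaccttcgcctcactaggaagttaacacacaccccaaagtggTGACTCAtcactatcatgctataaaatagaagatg
Each window held 1 match, starting 46, 63 and 35 bases before the start of Mmp3, Mmp10 and Mmp13. Of all 32851 RefSeq windows of this length, 6.75% held a match, and of the 17 windows of the tested proteases and inhibitors with an entry, 4 did. The share was 5.47% of 2433 windows of genes that rose and 4.37% of 1099 windows of genes that fell.

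**Figure D2:**
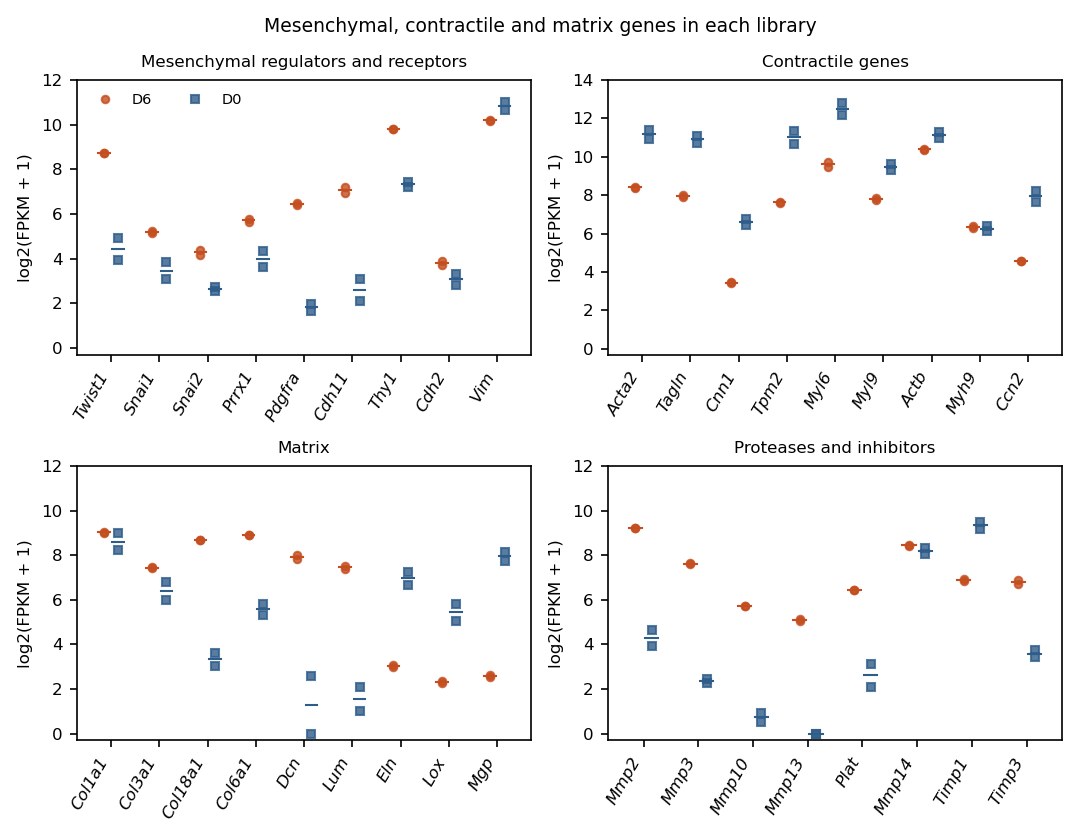
Levels on the log2(FPKM + 1) scale (y axis) in each D6 library (circles) and each D0 library (squares), with short lines at the group means, for mesenchymal, contractile, matrix and protease genes. Twist1, Pdgfra, Dcn, Lum, Mmp2 and Mmp3 lie higher in D6, Acta2, Tagln, Cnn1, Eln, Lox and Timp1 lower, and Col1a1, Myh9 and Mmp14 within 1 unit.

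Immediate early genes, which fibroblasts induce within minutes of serum or stress, were higher in D6: 18 of 25 rose and 3 fell, with the same counts in both fits and a median of 2.57 as deposited and 2.02 with the trend removed. Fos had 109 and 97.5 FPKM in D6 against 0.657 and 3.7 FPKM in D0 (log2 fold change 5.22 ± 0.42, limma adjusted p = 4.91e-07; 4.88 with the trend removed). Junb, its partner in AP-1, had 481 and 477 FPKM in D6 against 41.7 and 64.9 FPKM in D0 (3.18 ± 0.19, limma adjusted p = 5.46e-08), and Fosl1 had 37.5 and 30.6 in D6 against 0.604 and 0.796 in D0. In all 3 genes both D6 libraries lay above both D0 libraries. Zfp36, which degrades cytokine mRNAs, had 157 and 148 FPKM in D6 against 3.76 and 6.07 FPKM in D0, and the zinc finger factor Egr3 18.9 and 17 in D6 against 0.503 and 0.453 in D0. Klf4, a growth arrest factor that is also a reprogramming factor, had 27.5 and 25.1 in D6 against 1.21 and 1.64 in D0. Btg2, which p53 also induces, had 121 and 116 in D6 against 6.7 and 9.46 in D0. Both sit in this list and in another counted below. Jund fell to 103 and 119.5 FPKM in D6 against 403 and 328 in D0, Klf2 to 3.18 and 2.82 against 8.12 and 14.3 and Batf3 to 1.86 and 1.19 against 5.48 and 3.8. Ier2 (191 and 204 in D6 against 239 and 194 in D0) and Maff (6.83 and 6.84 in D6 against 4.96 and 9.91 in D0) were called in neither fit, and their groups overlapped.

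Among chemokines, cytokines and targets of NF-kB, the factor of inflammatory signalling, 18 of 31 rose and 3 fell. Ccl2, ENSMUSG00000035385, chromosome 11 from 82035571 to 82037453 in mm10, the main attractant of monocytes, had 327 and 306 FPKM in D6 against 10.11 and 22.5 FPKM in D0 (log2 fold change 4.29 ± 0.29, limma adjusted p = 1.42e-07). Its neighbour Ccl8, at 82115185 to 82116799 on the same chromosome, had 287 and 317 FPKM in D6 against 0 and 0.274 FPKM in D0, and the neutrophil attractant Cxcl1 111 and 104 in D6 against 0.517 and 2.44 in D0. Icam1, an adhesion receptor for leukocytes, had 67.9 and 66.1 FPKM in D6 against 0 and 1.64 FPKM in D0. Of 10 other listed NF-kB targets 6 rose. Among them were Bcl3 at 99.5 and 101 in D6 against 3.74 and 2.87 in D0 and Tnfaip2 at 80.7 and 83 in D6 against 0 and 3.4 in D0. The 3 that fell were chemokines. Cxcl14 had 6.04 and 4.88 FPKM in D6 against 46.3 and 46.1 FPKM in D0. Cx3cl1, a membrane-tethered chemokine, had 1.43 and 1.22 in D6 against 9.17 and 11.1 in D0, and Ccl5 had 0.397 and 0.669 in D6 against 4.37 and 3.81 in D0. Cxcl12, the stromal ligand of Cxcr4, was lower only with the trend removed (11.8 and 10.9 in D6 against 16.8 and 29.4 in D0). Csf1 was called in neither fit (31.5 and 31.4 in D6 against 22.5 and 35.9 in D0). Markers of macrophages ran against this list, at 11.3 and 11.3 FPKM summed over 18 markers in D6 against 133 and 147 FPKM in D0, with C1qa, C1qb and Spi1 listed at 0 in both D6 libraries.

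Targets of p53, the stress-activated tumour suppressor, rose in 20 of 30 cases and fell in 0 (24 and 0 as deposited, 20 and 1 with the trend removed; median 2.38 and 1.44). Mdm2, ENSMUSG00000020184, chromosome 10 from 117688875 to 117710758 in mm10, the ligase that p53 induces to limit itself, had 241 and 228 FPKM in D6 against 8.81 and 15.3 FPKM in D0 (log2 fold change 4.22 ± 0.25, limma adjusted p = 4.87e-08; 3.52 with the trend removed). Cdkn1a (p21), the kinase inhibitor through which p53 stops the cycle, had 387 and 387 FPKM in D6 against 55.8 and 65.7 FPKM in D0 (2.66 ± 0.24, limma adjusted p = 1.48e-06). For both genes the D6 libraries lay close together and far above both D0 libraries. The death gene Pmaip1 (Noxa) had 133 and 125 FPKM in D6 against 1.76 and 3.36 FPKM in D0. Trp53inp1, a cofactor of p53, had 39.9 and 34.9 in D6 against 0 and 0.894 in D0. Perp, a membrane protein of desmosomes and apoptosis, had 24.9 and 23.6 in D6 against 0 and 1.08 in D0. The DNA damage gene Gadd45a had 89.4 and 83.4 in D6 against 5 and 7.51 in D0. Trp53 itself was higher only as deposited (51.2 and 52 in D6 against 12.3 and 32.4 in D0). The death gene Bax was lower with the trend removed only (318 and 360.4 in D6 against 730.0 and 583 in D0, log2 -1.10). Bbc3 (12.7 and 12.13 in D6 against 7.92 and 9.73 in D0) and Phlda3 (258 and 277 in D6 against 239 and 231 in D0) were called in neither fit.

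Of 12 genes of cyclin-dependent kinase inhibition and senescence 6 rose and 2 fell. Cdkn2a, the locus of p16 and Arf whose products a value per gene cannot separate, had 148 and 167 FPKM in D6 against 57.4 and 42.2 FPKM in D0, and its neighbour Cdkn2b (p15) 78.4 and 86.9 in D6 against 28.4 and 33.2 in D0. Rb1, the retinoblastoma protein, had 7.21 and 7.14 FPKM in D6 against 0 and 0.962 FPKM in D0, and Rbl2 4.68 and 5.09 in D6 against 0.336 and 0.347 in D0. Cdkn1c (p57), an imprinted inhibitor, fell to 59 and 56.9 FPKM in D6 against 131 and 146 in D0. Lmnb1, the lamin that senescent cells lose, fell to 9.18 and 9.17 against 16.6 and 28.9.

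The cell cycle was lower in D6. Of 42 mitosis genes 15 fell and 0 rose (34 lower with the trend removed; median -0.67 as deposited and -1.43 with the trend removed), and of 35 replication genes 16 fell and 1 rose (25 lower with the trend removed; median -0.71 and -1.40). Their median exon length was 4926.5 bases for mitosis and 4259 for replication, against 3708 over all genes tested, so the trend bears on them. Birc5, ENSMUSG00000017716, chromosome 11 from 117849251 to 117855743 in mm10, survivin of the chromosomal passenger complex, had 19 and 19.8 FPKM in D6 against 209 and 207 FPKM in D0 (log2 fold change -3.35 ± 0.15, limma adjusted p = 6.24e-09). The centromeric histone Cenpa had 15 and 16.4 FPKM in D6 against 114 and 109 FPKM in D0. Cdca8 (borealin), a partner of Birc5, had 8.78 and 9.54 in D6 against 54.3 and 61.2 in D0. Cdc20, activator of the anaphase-promoting complex, had 11.6 and 11.5 in D6 against 43.1 and 62.5 in D0. In S phase, DNA ligase Lig1 had 7.83 and 9.96 FPKM in D6 against 54.9 and 42.7 FPKM in D0. The helicase subunit Mcm6 had 9.54 and 8.86 in D6 against 41.9 and 45.6 in D0. Thymidine kinase Tk1 had 12.6 and 11 in D6 against 47.8 and 59.5 in D0. Mki67, the proliferation antigen, fell to 2.49 and 2.58 FPKM in D6 against 8.8 and 9.07 in D0. Pcna was called in neither fit (41.5 and 41.1 in D6 against 35.9 and 64.8 in D0), with the D6 values between the D0 values. E2f8, a repressor among the E2F factors, was the gene that rose (12.06 and 11.2 in D6 against 0.249 and 0.706 in D0). Of 7 replication-dependent histone genes tested 4 fell, among them Hist1h3c (0.427 and 0.141 in D6 against 20.5 and 13.51 in D0), whose mRNAs end without a poly(A) tail.

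Promoters of mitotic genes commonly carry CCAAT boxes, bound by NF-Y. The mitotic kinase Cdk1 had 7.41 and 8.54 in D6 against 15.5 and 23.1 in D0. Its cyclin Ccnb2 had 8.26 and 8.97 in D6 against 23.4 and 30.5 in D0. These genes and Cdc20, all of which fell, were picked after their values were seen and are printed as the 250 bases before the RefSeq start (GRCm38.p6, minus strand, 5′ to 3′ along the gene), with CCAAT and its reverse complement in capitals.
Cdk1, chr10:69352913-69353162: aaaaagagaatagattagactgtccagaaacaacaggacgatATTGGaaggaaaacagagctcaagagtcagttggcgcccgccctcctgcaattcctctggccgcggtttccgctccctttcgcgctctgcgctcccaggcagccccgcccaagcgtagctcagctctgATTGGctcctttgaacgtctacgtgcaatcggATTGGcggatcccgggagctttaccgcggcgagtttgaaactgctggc
Ccnb2, chr9:70421555-70421804: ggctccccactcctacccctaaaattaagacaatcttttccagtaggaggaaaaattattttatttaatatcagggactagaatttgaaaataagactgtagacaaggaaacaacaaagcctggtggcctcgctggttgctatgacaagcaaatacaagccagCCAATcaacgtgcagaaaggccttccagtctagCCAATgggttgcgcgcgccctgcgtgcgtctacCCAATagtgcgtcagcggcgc
Cdc20, chr4:118437344-118437593: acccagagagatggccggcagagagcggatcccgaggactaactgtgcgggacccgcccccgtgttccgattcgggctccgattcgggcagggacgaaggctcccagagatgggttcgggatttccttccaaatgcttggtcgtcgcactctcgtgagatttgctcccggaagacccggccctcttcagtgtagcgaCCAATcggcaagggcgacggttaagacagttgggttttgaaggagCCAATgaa
The windows held 3, 3 and 2 matches. CCAAT was found in 30 of 38 windows of the mitosis genes (78.9%), in 33.8% of all windows, in 36.4% of the windows of genes that fell and in 33.8% of those that rose. The list was not chosen for its promoters, and the shares carry no test.

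**Figure D3:**
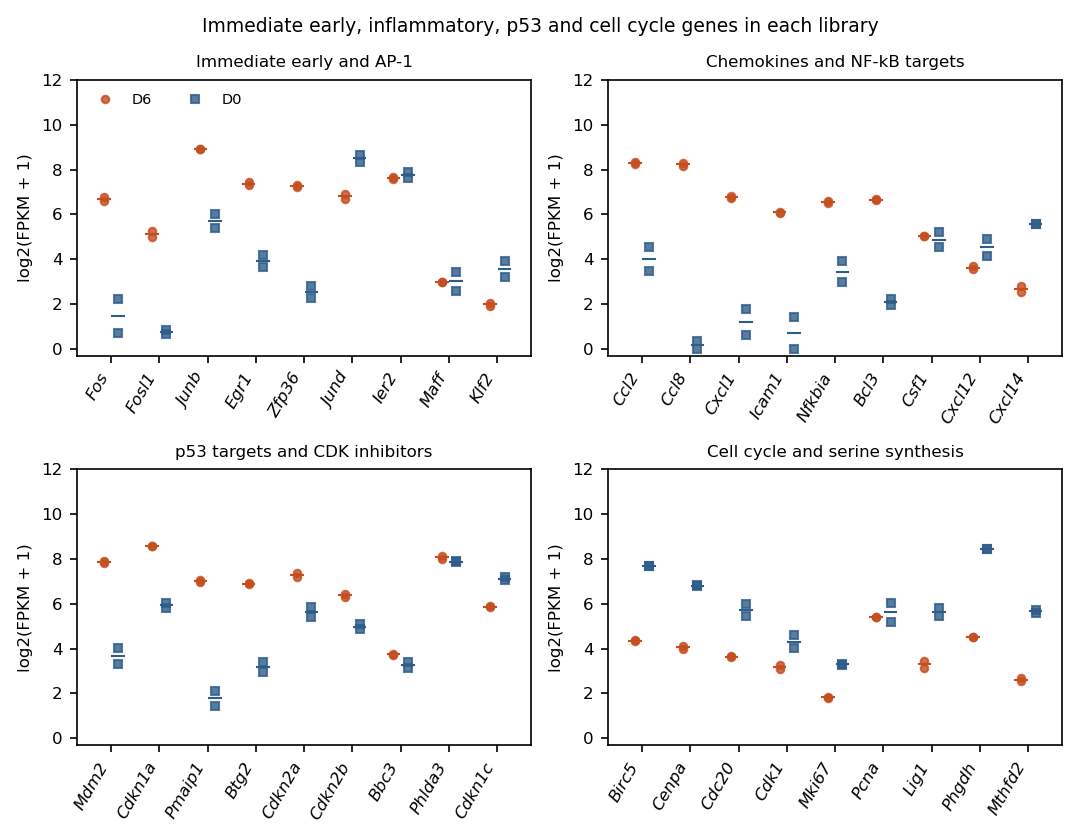
Levels on the log2(FPKM + 1) scale (y axis) in each D6 library (circles) and each D0 library (squares), with short lines at the group means, for immediate early, inflammatory, p53 and cell cycle genes. Fos, Junb, Ccl2, Cxcl1, Mdm2 and Cdkn1a lie higher in D6, and Jund, Cxcl14, Birc5, Cenpa and Phgdh lower.

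Ligands and receptors of TGF-beta signalling, the pathway that maintains contractile fibroblasts, are given here with its targets. Of 9 ligands and subunits 4 rose and 1 fell, of 6 receptors 4 rose, and of 9 targets and inhibitors 0 rose and 2 fell. Inhbb, the activin B subunit, had 198 and 197 FPKM in D6 against 1.7 and 1.76 FPKM in D0 (log2 fold change 6.19 ± 0.17, limma adjusted p = 1.93e-10). Tgfb2 had 28.1 and 25.9 FPKM in D6 against 2.86 and 5.49 FPKM in D0, while Tgfb3 fell to 8.5 and 9.05 FPKM in D6 against 41.3 and 61.4 in D0. Receptors Tgfbr2 (37.9 and 34.4 in D6 against 2.29 and 3.31 in D0) and Tgfbr3 (18 and 14.7 in D6 against 0.0856 and 0.778 in D0) rose. Among targets, Pmepa1 fell to 14.7 and 14.2 FPKM in D6 against 33.8 and 42.8 in D0. Bambi, a pseudoreceptor, fell to 0.936 and 0.81 in D6 against 3.16 and 5.3 in D0. Smad7, the inhibitory Smad, was lower only with the trend removed (2.89 and 3.32 in D6 against 4.17 and 6.1 in D0).

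BMP ligands, of the same superfamily, rose in 5 of 7 cases. Bmp2 had 19.3 and 16.2 FPKM in D6 against 0.522 and 0.481 FPKM in D0 and Bmp7 26.2 and 26.8 in D6 against 0 and 1.78 in D0, and Grem1, a secreted BMP inhibitor, had 33 and 29.7 in D6 against 1.97 and 2.92 in D0. Gdf5, a ligand of joints, fell to 0 in both D6 libraries against 1.87 and 2.25 FPKM in D0, and the inhibitor Nog fell to 0.447 and 0.495 against 4.21 and 5.24. Of 5 direct BMP targets 1 rose and 0 fell, with Id1 at 219 and 230.1 in D6 against 208 and 204 in D0 and Id3 at 304 and 318 in D6 against 167 and 235 in D0 called in neither fit.

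Of 16 genes listed as Wnt feedback, some of which beta-catenin induces, 8 rose, and of the other targets 2 of 7, with 0 falls. Those that rose include the secreted Wnt inhibitors Dkk3, Sfrp2 and Wif1, so the count is no measure of beta-catenin activity. Notum, a secreted enzyme that inactivates Wnt, had 86.1 and 91.1 FPKM in D6 against 0.432 and 0.564 FPKM in D0 (log2 fold change 5.90 ± 0.24, limma adjusted p = 2.40e-09). Apcdd1, an inhibitor at the membrane, had 68.9 and 66.3 FPKM in D6 against 1.4 and 2.25 FPKM in D0. Nkd1, an inhibitor inside the cell, had 43.4 and 42.3 in D6 against 1.41 and 2.18 in D0. The partner of beta-catenin Tcf7 had 13.2 and 12.4 in D6 against 0 and 0.265 in D0, and the target factor Sp5 had 6.44 and 5.56 in D6 against 0 and 0 in D0. Myc (22.5 and 25.9 in D6 against 8.25 and 14.8 in D0) was higher only as deposited, and Dkk2 (22.3 and 20.5 in D6 against 18.6 and 10.5 in D0) was called in neither fit. The mesodermal targets T and Cdx1 were listed at 0 in all 4 libraries.

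ERK feedback genes, which FGF signalling induces to limit itself, rose in 7 of 12 cases with 0 falls. The phosphatase Dusp6 had 85.4 and 76.7 FPKM in D6 against 4.35 and 6.34 FPKM in D0 and Spred1, an inhibitor of Ras, 32.8 and 30.2 in D6 against 2.46 and 3.51 in D0. The receptor Fgfr2 had 14.2 and 12 in D6 against 0 and 2.86 in D0. Of 11 IGF genes 5 rose and 1 fell. The binding protein Igfbp3 had 208 and 196 in D6 against 21.2 and 26.6 in D0, and Igfbp5 had 99.9 and 87.9 in D6 against 4.36 and 5.89 in D0. Igfbp2 fell to 39.1 and 40.6 FPKM in D6 against 239 and 230.5 in D0.

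Retinoid genes rose in 9 of 19 cases. Retinoic acid signals through nuclear receptors, and its response genes include its own degrading enzymes. Cyp26b1, such an enzyme, had 182 and 172 FPKM in D6 against 1.28 and 2.88 FPKM in D0 (log2 fold change 5.90 ± 0.29, limma adjusted p = 1.29e-08), and Cyp26a1 had 12.9 and 12.6 in D6 against 0 and 0 in D0. Stra6, the retinol importer, had 62.2 and 62.8 FPKM in D6 against 0 and 0.15 FPKM in D0, and the receptor Rarb, a direct target, 21.6 and 19.4 in D6 against 0.25 and 0.754 in D0. The binding protein Crabp1 was among the highest transcripts of D6, at 6807 and 7654 FPKM in D6 against 730.3 and 652 FPKM in D0.

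**Figure D4:**
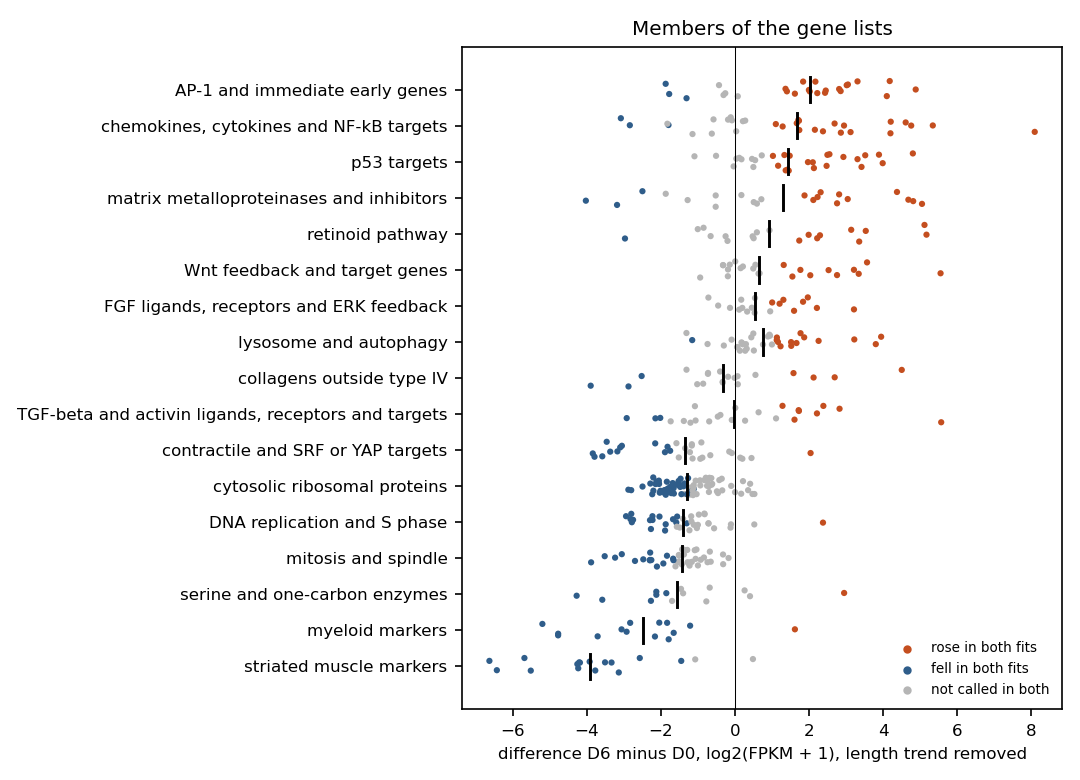
Difference D6 minus D0 on the log2(FPKM + 1) scale with the length trend removed (x axis) for each tested member of 17 gene lists (rows; points are genes, spread vertically at random), with a black line at each list's median. Points are coloured by whether the gene rose, fell or was not called in both fits; the medians run from 2.02 for immediate early genes to -3.93 for striated muscle markers.

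Serine synthesis fell: of its 5 enzymes 4 fell and 0 rose. Phgdh, ENSMUSG00000053398, chromosome 3 from 98313170 to 98339990 in mm10, which opens the pathway, had 21.9 and 22.1 FPKM in D6 against 349 and 343 FPKM in D0 (log2 fold change -3.91 ± 0.34, limma adjusted p = 8.53e-07). Psat1, the next enzyme, had 25.4 and 22.2 in D6 against 54.4 and 88.8 in D0, and the mitochondrial folate enzyme Mthfd2 5.37 and 4.96 in D6 against 47.1 and 52.4 in D0. Aldh1l1, which consumes one-carbon units, rose to 14.3 and 15.9 FPKM in D6 against 0.306 and 0.37 in D0. Genes that Atf4 and Ddit3 (CHOP) drive, the amino acid and endoplasmic reticulum stress response, went both ways, with 5 falls and 3 rises in 10. Trib3 had 0.791 and 0.604 FPKM in D6 against 10.6 and 12.5 FPKM in D0, Asns 9.67 and 10.7 in D6 against 38.9 and 48.8 in D0 and Ddit3 itself 16.8 and 20.5 in D6 against 77.7 and 60.8 in D0. Atf4 was called in neither fit (85.3 and 85.2 in D6 against 100.1 and 160.3 in D0), and Sesn2, shared with p53, rose (32.3 and 31.8 in D6 against 5.53 and 9.12 in D0).

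All 3 metallothioneins, which bind zinc and copper, rose. Mt1 had 1237 and 1385 FPKM in D6 against 88.2 and 67.6 FPKM in D0. Mt2 had 1425 and 1522 FPKM in D6 against 35 and 31.8 FPKM in D0. Mt3, best known from brain, had 37.7 and 55 in D6 against 3.58 and 1.62 in D0. Of 9 targets of the oxidant sensor NRF2 6 rose, among them heme oxygenase Hmox1 (107 and 108 in D6 against 14.4 and 22.9 in D0) and the glutathione enzyme Gclc (7.54 and 6.78 in D6 against 0.757 and 0.987 in D0). Of 8 heat shock genes 2 rose and 1 fell. The small heat shock protein Hspb1 fell to 111 and 112 FPKM in D6 against 307 and 339 in D0, while inducible Hspa1a, whose reads can be shared with its near-identical copy Hspa1b, rose to 16.2 and 16.7 against 1.27 and 3.09.

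Lysosomal genes rose in 10 of 19 cases with 0 falls, and autophagy genes in 3 of 16 with 1. Cathepsins Ctsl (789 and 774 in D6 against 22.8 and 41.9 in D0) and Ctsb (838 and 873 in D6 against 45.1 and 60.7 in D0) rose, and Lamp2, the lysosomal membrane protein, had 150.3 and 139 in D6 against 14.9 and 25 in D0. The mitophagy receptor Bnip3 had 32.5 and 30.6 FPKM in D6 against 0 and 1.87 FPKM in D0. Map1lc3a fell to 62.9 and 68.3 FPKM in D6 against 138 and 138 in D0. Macrophage markers, which could bring lysosomal transcripts, were lower in D6 than in D0, as given above, and their part in the lysosomal result was not tested. Cd68, a lysosomal protein of macrophages, was the 1 of 14 tested that rose (8.47 and 8.4 in D6 against 1.31 and 2.56 in D0).

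Of 19 genes listed as regulators of mTORC1, the growth kinase, 6 rose and 0 fell. Not all of them restrain it, so the count is no measure of mTORC1 activity. Flcn, a regulator of lysosomal signalling, had 13.6 and 14.6 FPKM in D6 against 0 and 2.53 FPKM in D0. Its partner Fnip1 had 7.52 and 6.48 in D6 against 0.57 and 0.674 in D0, and Fnip2 had 6.95 and 6.08 in D6 against 0.471 and 0.716 in D0. Ddit4, which p53 and hypoxia also induce, had 43.6 and 44.3 in D6 against 4.29 and 8.2 in D0. Fatty acid oxidation genes rose in 5 of 17 cases with 1 fall, and peroxisome genes in 3 of 6. Cpt1a, which admits fatty acids to mitochondria, had 23.6 and 22.4 in D6 against 0.881 and 0.836 in D0. Glycolysis genes rose in 8 of 23 cases with 0 falls. The glucose transporter Slc2a3 had 13.7 and 12.6 in D6 against 1.35 and 0.0231 in D0. Pfkfb3, which makes the activator of phosphofructokinase, had 12.19 and 12 in D6 against 0.99 and 1.05 in D0. Hexokinase Hk2 had 20 and 18.2 in D6 against 2.22 and 3.13 in D0. The enzymes Gapdh (39.7 and 39.7 in D6 against 21.2 and 28.6 in D0) and Pkm (1027 and 1107 in D6 against 1018 and 1062 in D0) were called in neither fit, nor was Ldha (489.6 and 521 in D6 against 611 and 745 in D0).

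Ribosomal protein genes fell: of 77 tested 41 fell and 0 rose (51 lower with the trend removed; median -1.04 and -1.30). Rpsa of the small subunit had 1079 and 1297 FPKM in D6 against 8096 and 4709 FPKM in D0. Rplp1 of the stalk had 3036 and 3353 in D6 against 17017 and 10521 in D0, and Rpl8 had 1091 and 1211 in D6 against 5441 and 4051 in D0. Rpl23 (719.8 and 727 in D6 against 585 and 682 in D0) and Rpl10 (969 and 1028 in D6 against 1334 and 1451 in D0) were called in neither fit, nor was Rps29 (656 and 661 in D6 against 667 and 748 in D0). Many of these genes have processed pseudogenes that can share their reads. The factors that build ribosomes in the nucleolus fell in 12 of 27 cases with 0 rises, with a median of -0.63 as deposited and -1.65 with the trend removed. Fbl (fibrillarin) had 74.3 and 87 FPKM in D6 against 447 and 356 FPKM in D0. Nhp2, of the RNA-modifying particles, had 45.9 and 49.8 in D6 against 354 and 282 in D0. Bop1, of large subunit assembly, had 16.5 and 18.6 in D6 against 85.6 and 81.8 in D0. Nucleophosmin Npm1 was called in neither fit (345 and 336 in D6 against 306 and 497 in D0).

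Of 10 mitochondrial genes tested 9 rose. The cytochrome b gene mt-Cytb had 3663 and 2688 FPKM in D6 against 7.92 and 29.4 FPKM in D0. The oxidase subunit mt-Co1 had 7750.4 and 6259 FPKM in D6 against 82.5 and 305 FPKM in D0. The small gene mt-Nd4l alone had 306864 and 193585 FPKM in D6 against 0 and 5415 FPKM in D0. It carries most of the mitochondrial share of FPKM in D6. It overlaps its neighbour on the mitochondrial genome, and mt-Nd2 was listed at 0 in all 4 libraries, so the levels of single mitochondrial genes are uncertain. Of 46 nuclear genes of the respiratory chain, 5 rose and 10 fell, with Sdhc up (50.2 and 49.3 in D6 against 11.5 and 22.6 in D0) and Ndufa2 down (158 and 183 in D6 against 1213 and 610.5 in D0).

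Markers of other cell types separated the starting culture from D6. Of 17 tested striated muscle genes 15 fell and 0 rose, and of 14 tested myeloid genes 13 fell and 1 rose. The embryonic light chain Myl4 had 0.612 and 0.744 FPKM in D6 against 133 and 83.2 FPKM in D0, troponin Tnnt2 0.106 and 0.332 in D6 against 68.8 and 45.3 in D0 and Tnnc1 1.45 and 1.99 in D6 against 174 and 99.95 in D0. The muscle regulator Myog was listed at 0 in both D6 libraries and at 5.34 and 9.16 FPKM in D0. Complement C1qa was at 0 in both D6 libraries and at 40.7 and 28.5 in D0, and lysozyme Lyz2 at 0.266 and 0.305 in D6 against 25.6 and 39.4 in D0. D0 therefore held transcripts of muscle and of macrophages beside those of fibroblasts. Endothelial markers summed to 24.5 and 26.3 FPKM in D6 against 21.5 and 21.7 in D0, with Pecam1 at 0 and 0.0724 in D6 against 0.0663 and 0 in D0. Neural and Schwann markers summed to 66.0 and 70.2 FPKM in D6 against 113 and 96.2 in D0, most of the D0 sum being Nes, which fell to 18.9 and 20.5 FPKM against 93.9 and 74.5.

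Several epithelial genes were detected at low levels in D6. Of 18 junction genes 8 rose and 0 fell, and of 12 regulators 2 rose. Epcam, the epithelial adhesion molecule, had 11.6 and 11.7 FPKM in D6 against 0 and 0.144 FPKM in D0 (log2 fold change 3.57 ± 0.11, limma adjusted p = 3.50e-10; 3.27 with the trend removed). Desmoplakin Dsp was at 11.3 and 9.96 FPKM in D6 and listed at 0 in both D0 libraries, as was claudin Cldn6 (5.15 and 4.92 in D6). Cdh1, E-cadherin, had 2.1 and 1.93 FPKM in D6 against 0.0759 and 0 FPKM in D0, called only as deposited. The epithelial splicing factor Esrp1 (0.185 and 0.268 in D6 against 0 and 0 in D0) and the regulator Grhl2 (0.15 and 0.116 in D6 against 0 and 0 in D0) were called in neither fit. Of 4 keratins, the intermediate filaments of epithelia, 1 rose and 2 fell. Krt8 rose (14.9 and 15.2 in D6 against 4.14 and 3.89 in D0), and Krt19 (25.7 and 26.1 in D6 against 113 and 81.3 in D0) and Krt7 (1.21 and 1.48 in D6 against 4.12 and 3.73 in D0) fell. Summed over 35 listed genes the level was 192 and 190 FPKM in D6 against 193 and 165 FPKM in D0, so the summed level overlapped between D6 and D0.

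Of 6 core pluripotency genes Sox2 rose and 0 fell, and Pou5f1 and Nanog were at or near 0. Pou5f1 was listed at 0.0576 and 0 FPKM in D6 and at 0 in both D0 libraries, and Nanog at 0 in all 4. Esrrb had 0.338 and 0.333 in D6 against 0 and 0 in D0, and Dppa5a 0 and 0.377 in D6 against 0 and 0.0663 in D0. Sox2 rose to 3.3 and 2.55 FPKM in D6 against 0 and 0.182 in D0, and Klf4 and Klf5 rose (26.6 and 23 in D6 against 3.3 and 2.19 in D0 for Klf5), so 5 of 24 rose and 1 fell. Regulators of extraembryonic endoderm, an identity that chemical reprogramming can pass through, were detected. Sox17 was at 20.2 and 20.7 FPKM in D6 and listed at 0 in D0, Sox7 at 6.37 and 5.92 in D6 and at 0 in D0, and Gata4 at 5.15 and 4.66 in D6 against 0 and 0.0636 in D0. Gata6 was called only as deposited (3.67 and 3.84 in D6 against 0.392 and 0.82 in D0), Foxa2 stood at 0.991 and 1.4 in D6, and the marker Ttr had 0.266 and 0.0389 in D6 against 0 and 0 in D0. Regulators rose in 3 of 8 cases and markers in 3 of 9, namely Pdgfra, Lama1 and Amn, of which Pdgfra and Lama1 were described above as fibroblast and basement membrane genes.

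To place these differences in the course, D6 was set beside D4 and D2 for the genes named above (mean ± SD, n = 2 each; limma adjusted p for D6 against D4). Between D6 and D4, 11.6% of genes tested were higher and 6.86% lower as deposited, and 9.38% and 7.67% with the length trend removed. The single-gene differences below are as deposited, and the list counts are of genes called in the same direction in both fits (9.03% of genes higher and 6.38% lower). Twist1 had already reached 359.7 ± 131 FPKM at D2 and 549.7 ± 101 at D4, and D6 was not called against D4 (log2 -0.34, adjusted p = 0.36). Notum stood at 144 ± 68.3 at D2 and 274 ± 31.7 at D4, above D6 (log2 -1.62 for D6 minus D4, adjusted p = 1.53e-04). Of 23 Wnt genes, 1 was higher and 11 lower in D6 than in D4.

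Acta2 was lower at D4 than at D6: it measured 142 ± 152 FPKM at D2, where the libraries lay far apart, 35.3 ± 3.14 at D4 and 330.3 and 348 at D6 (log2 3.23 for D6 minus D4, adjusted p = 7.42e-04). Ccn2 likewise had 1.14 ± 0.212 FPKM at D4. In D6, 16 of 29 contractile and YAP or SRF genes were higher than in D4 and 1 lower, although 12 had fallen relative to D0.

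Many inflammatory, immediate early and p53 genes were higher in D6 than in D4. Ccl2 stood at 23.3 ± 3.31 FPKM at D2 and 2.71 ± 1.03 at D4 (log2 6.44 for D6 minus D4, adjusted p = 1.83e-08). Mmp3 had 5.68 ± 0.963 FPKM at D4, and Mdm2 21.9 ± 2.58 (log2 3.36, adjusted p = 6.81e-07). Higher in D6 than in D4 were 20 of 25 immediate early genes, 19 of 31 chemokine and NF-kB genes and 16 of 30 p53 targets, with 0, 1 and 0 lower. Cell cycle genes went down over the same step: 31 of 42 mitosis and 25 of 35 replication genes were lower in D6 than in D4, and Birc5 had 117 ± 8.55 FPKM at D4 (log2 -2.52, adjusted p = 1.29e-07). Epcam was at 2.19 ± 0.256 FPKM at D4 (log2 1.99, adjusted p = 7.11e-08).

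**Figure D5:**
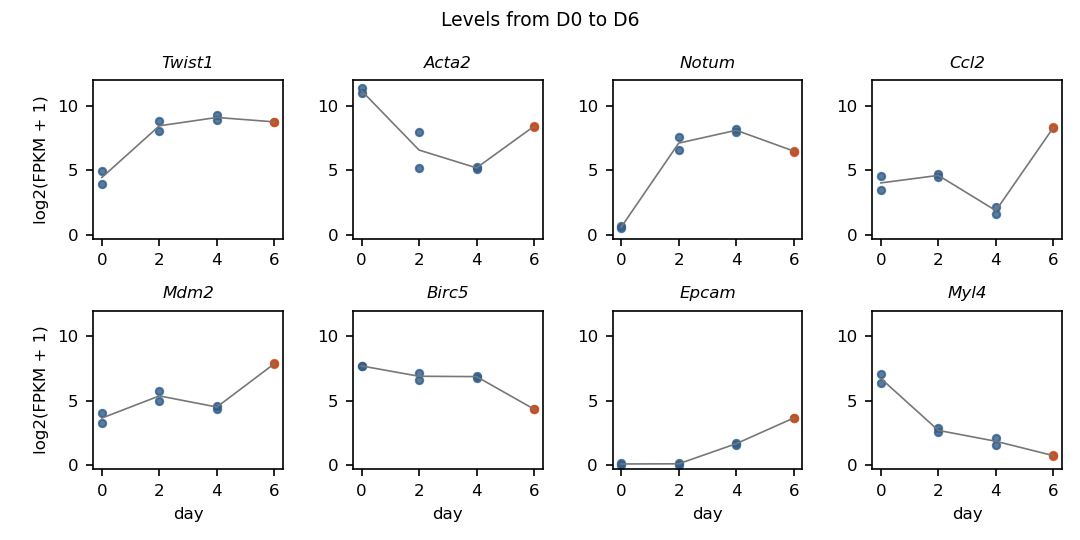
Levels on the log2(FPKM + 1) scale (y axis) of 8 genes in both libraries of D0, D2, D4 and D6 (x axis, day), with a grey line through the group means and the D6 libraries in orange. Twist1 and Notum are up by day 2, Acta2 dips to day 4 and is partly back at day 6, Ccl2 and Mdm2 are highest at day 6, and Birc5 and Myl4 end lowest.

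The rule for named genes also took the 15 highest and 15 lowest changes that passed in both fits. Those not yet given are listed here. S100g, an intestinal calcium-binding protein, was listed at 0 in both D0 libraries and at 239.8 and 246 FPKM in D6. The cytokine Tnfsf9 had 239 and 245 in D6 against 0 and 0.279 in D0. The angiotensin receptor Agtr2 was listed at 0 in D0 and at 136 and 121 FPKM in D6. Socs3, which limits STAT3 signalling, had 256 and 258 in D6 against 0 and 4.15 in D0. The tubulin Tubb4a was listed at 0 in D0 and at 66.8 and 66.5 FPKM in D6. Neat1, the nuclear RNA of paraspeckles, had 79.6 and 66.3 in D6 against 0.189 and 0 in D0. The cornified envelope gene Sprr2a2 had 62.4 and 73.3 in D6 against 0 and 0.0405 in D0. The complement protease Masp1 had 118 and 111 in D6 against 0.0401 and 2.22 in D0, and the mitochondrial transfer RNA mt-Tl1 had 191 and 134 in D6 against 0.197 and 1.25 in D0.

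At the low end, Plac9b had 0.363 and 0.288 in D6 against 97.6 and 51.8 in D0 and Plac9a 0.087 and 0.0911 in D6 against 47 and 24.1 in D0, a pair of near-identical genes whose reads can be shared. The tendon protein Tnmd had 0.104 and 0.187 in D6 against 17.6 and 31.6 in D0. The forkhead factor Foxs1 had 2.29 and 2.35 in D6 against 70.6 and 51.4 in D0. The slow muscle troponin Tnni1 had 1.36 and 0.669 in D6 against 64.3 and 57.4 in D0. The long non-coding RNA AC157548.1 had 6.18 and 0 in D6 against 53.1 and 41.6 in D0, its D6 libraries far apart. The short non-coding RNAs Rpph1 (0.0453 and 0.0475 in D6 against 35.8 and 14.1 in D0) and Snora57 (2.12 and 3.62 in D6 against 93.5 and 67.3 in D0) are shorter than most transcripts, and their values are uncertain.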

How the data were processed

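Total RNA of 18 libraries was sequenced on a NovaSeq 6000 with 150-base reads, per the labels' protocols. The authors deposited FPKM values per gene. The submitters' processing notes name fastp 0.20.1, HISAT2 2.2.1, StringTie 2.0 and the mm10 build, and the strand setting is not given in the sources used here. No read counts were used, so no interval for counting error is given.

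The FPKM values were analysed as log2(FPKM + 1) with limma 3.58.1 in R 4.3.3: 9 group means fitted to the 18 libraries, moderated variances with 9 residual degrees of freedom per gene, and Benjamini-Hochberg adjustment over 16439 genes. Calls needed a 2-fold difference together with an adjusted p below 0.05. The length trend was fitted in every library to its departures from the all-library mean, by lowess (span 0.3, 3 iterations) on log2 exon length, for the 16423 genes with a length. The same replicate numbers occur in both groups, and the main fit did not treat them as pairs (see the replicate block among the alternatives). The fits were tested on simulated data.

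The gene lists were chosen with earlier results of these data known. Genes are named by a rule: the 15 highest and 15 lowest changes called in both fits with a mean of at least 10 FPKM in the higher group, up to 6 called members per list in each direction, members given as not called, and a fixed set of fibroblast, epithelial, pluripotency and stress genes. Snai1, Ajuba, Krt8, Myog, Spi1, Cdk1 and Ccnb2 fall outside it and were chosen after their values were seen. Some list members are not reported here. Promoter sequences are RefSeq windows of GRCm38.p6.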

Additional observations from a re-analysis of the deposited data

How the results depend on the processing

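The count of called genes was 6840 as reported (5395 higher and 1445 lower in D6, 78.9% of calls higher). It was 9199 with a pseudocount of 0.1 (7508 higher, 1691 lower), 3168 with a pseudocount of 5 (2216 higher, 952 lower) and 11495 with no fold threshold (8671 higher, 2824 lower). The split between directions depended on scaling. The calls were 2473 higher and 2471 lower with quantile normalization (50.02% higher), 3772 and 2664 with median-of-ratios scaling (58.6%), 4333 and 2362 with TPM scaling (64.7%), 6287 and 1053 with TPM scaling that leaves out mitochondrial transcripts (85.7%), and 2657 and 2563 with the length trend removed (50.9%). A fit of the 4 libraries alone called 4462 higher and 1333 lower as deposited. With the trend removed, the calls were 2587 and 2539 in that fit. They were 2589 and 2500 with the trend removed and group variance weights, an alternative chosen after seeing the data. The median difference over all genes, 0.50 as reported, was 0.20 under median-of-ratios scaling, 0.29 under TPM scaling, 0.65 under TPM scaling without mitochondrial transcripts and -0.05 under quantile normalization. The cause of the shift was not tested. Leaving out 1 library at a time gave 5984 to 7733 called genes, 4536 to 6204 higher and 1360 to 1529 lower.

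With replicate number as a block, 6846 genes were called (5400 higher, 1446 lower), and with the replicate block and the length trend removed 2658 were higher and 2563 lower. The deviations of same-numbered D6 and D0 libraries from their group means correlated at -0.11 over 16439 genes. This value cannot show whether same-numbered libraries were prepared together. Replicate differences also followed transcript length, in opposite directions (0.09 in D6 and -0.26 in D0 for the longest class, replicate 1 minus 2). The crossed pairing, chosen after seeing the data, gave 6844 calls.

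Of 243 named genes called as deposited, the direction was the same under every alternative run except for Fbn1 and Rian, whose differences were -0.00016 and -0.027 with the length trend removed. Of those that rose or fell, Batf3 and S100a11 lost the call without D0 replicate 1, Cdk1, H19, Lmnb1 and Meox2 without D0 replicate 2, Krt7 and Meox2 without D6 replicate 1 and Batf3 without D6 replicate 2. A pseudocount of 5 ended 28 of the 243 calls, among them Sox2, Gata4, Mki67 and Cdk1. The fit of the 4 libraries alone, as deposited, ended 14. For D6 against D4, 1910 genes were higher and 1127 lower as deposited, against 1541 and 1259 after the trend was subtracted, an alternative chosen after seeing the data.

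Without counts, the precision of single low values is unknown, and genes listed at 0 in both D0 libraries have no fold.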

Other observations

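Of all genes tested, 16.2% rose and 8.73% fell, and the list counts of this section are to be read against these shares. Among 23 imprinted genes tested, whose alleles are expressed by parent of origin, 7 rose and 5 fell. Mest had 60.9 and 51 FPKM in D6 against 2.14 and 6.71 FPKM in D0, Igf2r, the receptor that clears IGF2, 56.5 and 52.6 in D6 against 7.11 and 10.5 in D0 and Gnas, a G protein subunit, 580.3 and 569 in D6 against 86.9 and 189.5 in D0. The non-coding H19 had 998 and 1029 FPKM in D6 against 1615 and 2703 FPKM in D0, and its neighbour Igf2 was higher only as deposited (633 and 592 in D6 against 208 and 390.2 in D0). Dlk1 (23.4 and 20.7 in D6 against 79.6 and 151 in D0), Meg3 (52.4 and 55.8 in D6 against 119 and 196 in D0) and Mirg (4.44 and 6.13 in D6 against 19.5 and 18.3 in D0), which share one imprinted domain, fell, while Rian of the same domain was higher only as deposited (59.5 and 65.4 in D6 against 18.4 and 44.4 in D0). Of 41 T-box and Hox genes tested, which record position along the body, 8 rose and 4 fell, with Tbx3 at 12.24 and 11.7 in D6 against 0.557 and 1 in D0, Hoxb9 at 21.6 and 21.3 in D6 against 5.24 and 5.75 in D0, Tbx15 at 5.59 and 5.39 in D6 against 39.3 and 20.5 in D0 and Hoxd11 at 1.89 and 1.65 in D6 against 7.37 and 10.3 in D0. Against D4, 18 of these 41 were lower in D6 and 1 higher.

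Genes of MHC class I presentation rose in 5 of 17 cases and 1 fell: B2m, the shared light chain, had 291 and 270.0 FPKM in D6 against 39.4 and 92.7 FPKM in D0, the peptide transporter Tap1 19.8 and 20.2 in D6 against 0.941 and 1.67 in D0 and H2-K1 40.8 and 43.7 in D6 against 4.93 and 9.05 in D0, while the immunoproteasome subunit Psmb10 fell (13.8 and 14.4 in D6 against 68.6 and 56.1 in D0). Interferon-stimulated genes went both ways, 4 up and 3 down of 24, close to the shares of all genes tested (16.2% and 8.73%). Irf1 had 31.1 and 30.9 FPKM in D6 against 3.46 and 4.26 in D0, and Isg15 3.46 and 3.74 in D6 against 16.5 and 22.4 in D0. Ifit2 was listed at 0 in both D0 libraries and at 47.4 and 42.4 FPKM in D6. Among 29 regulators of DNA methylation and chromatin 6 rose and 1 fell. The H3K9 methyltransferase Suv39h1 had 82.9 and 80.5 FPKM in D6 against 5.94 and 11.7 FPKM in D0, the Polycomb partner Jarid2 20.3 and 15.6 in D6 against 0.445 and 0.839 in D0, and Uhrf1, which guides maintenance methylation, 5.89 and 6.3 in D6 against 13.3 and 19 in D0. Enzymes of cholesterol synthesis also went both ways, 3 up and 6 down of 22, with Fdps at 63.3 and 68.7 in D6 against 229 and 228 in D0 and Dhcr7 at 16.6 and 15.5 in D6 against 2.11 and 3.19 in D0, and the desaturase Scd1 rose (35 and 31.3 in D6 against 2.25 and 2.97 in D0). In the S100 family of calcium-binding proteins 5 of 14 rose and 3 fell, with S100a1 at 61.1 and 60.8 in D6 against 9.28 and 6.61 in D0 and S100a11 at 695 and 667 in D6 against 209 and 424 in D0.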
